A study of Mus musculus with 4 samples.

Results

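Ephrins are ligands held on the surface of cells, and Eph receptors are the receptor tyrosine kinases that bind them on a neighbouring cell. The 10 genes described here are the receptors Epha1, Epha2, Epha4, Ephb2, Ephb3 and Ephb4 and the ligands Efna1, Efna5, Efnb1 and Efnb2. They were found as the array probes, other than control probes, that carry 1 of these gene names, which gave 12 of 39429 probes and 10 of 31829 gene names. Where a gene had more than 1 probe, the brightest over the 4 arrays stood for the gene.

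The arrays measured total RNA of cells grown out of mammary tumours of MMTV-Neu mice, a strain whose Neu (Her2) oncogene is driven by the promoter of the mouse mammary tumour virus, mainly in mammary epithelium. Both groups carried the Neu transgene. They differed in Pak1, which encodes a kinase acting downstream of the GTPases Rac and Cdc42: 2 arrays came from Pak1-/- cells and 2 from Pak1+/+ cells, each pair from 2 tumours, and the age of the mice was not given in the sources used here. All cells were kept in low calcium medium with 5% horse serum, deprived of serum for 3 hours and then given EGF for 15 minutes, so that no unstimulated sample entered any comparison. Cell cultures, 2 a group, are a narrow model of a genotype, since the p-values rest on the spread between 2 cultures.

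An ephrin and its receptor signal in both directions, into the cell that carries the receptor and into the cell that carries the ligand. A-type ephrins are tethered by a lipid anchor and mostly bind A-type receptors, whereas B-type ephrins span the membrane and mostly bind B-type receptors. Epha4 is known for binding ligands of both types. The system is known for repulsion and sorting of neighbouring cells, for axon guidance and vessel formation, and in epithelia for keeping compartments of cells apart. Rac, Cdc42 and their exchange factors, which act upstream of Pak1, are known to lie downstream of Eph receptors.

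The probes that carried the differences are shown first, since each array value below is a signal at 1 stretch of a transcript. The following lines give the first 30 of 60 bases of the probes for the 5 genes past the test and, for Ephb3, bases 16 to 45, with an alternating run of G and T in capitals.
Efnb1: ttttggaccctcatgagacaatgctgttcc
Efna1: gtacagtgtctgtatataaatgtgctgtat
Epha4: caggctctgaggtttttattttttggcgat
Epha1: tcaatcagaactctgcctttgaaccaagga
Efna5: tgtgattctagcatttgtctctaaccaatg
Ephb3: agagccagagacTGTGTGTGTGTGTGTGTG
In mm9, as given by the array files, these probes lie at chrX:96343505-96343564 on the plus strand (Efnb1, probe A_51_P388478), chr3:89075703-89075762 on the minus strand (Efna1, A_55_P2031167) and chr1:77364339-77364398 on the minus strand (Epha4, A_55_P2023762). The others lie at chr6:42308583-42308642 on the minus strand (Epha1, A_51_P214269), chr17:62954177-62954236 on the minus strand (Efna5, A_51_P144319) and chr16:21223165-21223224 on the plus strand (Ephb3, A_55_P2054332). The exon or untranslated region under each probe was not annotated here.

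The run in the Ephb3 probe is 33 bases long. The 11 other probes on the array with a run of that length belong to 11 other gene names, each with a signal well above background on the 4 arrays (11 of 11, against 60.3% of all probes). Their mean log2 intensities ran from 15.51 to 17.34, a range that holds the Ephb3 values. The part of this repeat in the Ephb3 signal was not tested.

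The Pak1 probe (A_52_P663600), which bears on the labels, was not lower in the arrays labelled Pak1-/-. It read 12.21 and 12.25 there and 12.04 and 12.04 in Pak1+/+, as normalized log2 intensity, a difference of 0.19 ± 0.068 (SE, limma adjusted p = 0.0700). Whether this probe lies within the deleted part of the gene is not given in the sources used here, so the direction of every difference below rests on the labels. Both Pak1-/- arrays sat at positions 1 and 2 of the slide and both Pak1+/+ arrays at positions 3 and 4, so position and genotype cannot be told apart. The share of probes well above background was 70.4% and 68.2% on the Pak1-/- arrays and 67.7% and 62.2% on the Pak1+/+ arrays.

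Marker genes were read on the same arrays. Of 7 luminal or general epithelial markers, 6 were well above background on all 4 arrays, and Epcam, an epithelial adhesion molecule, lay between 15.01 and 15.33 log2. Of these 7, the adhesion molecule Cdh1 (1.19 log2) and the keratins Krt8 (0.57) and Krt18 (0.27) were higher in the arrays labelled Pak1-/-, and the keratin Krt7 was lower (-1.10). All 5 basal or myoepithelial markers tested were higher in the arrays labelled Pak1-/-, among them Krt14 by 2.83 ± 0.069 (SE) and Krt17 by 4.92 ± 0.18 (SE) log2 (limma adjusted p = 7.7e-05 and 0.000152), while Myh11, a contractile protein of mature myoepithelium, gave no signal well above background. Beside these marker counts, 51.0% of all genes tested passed an adjusted p of 0.05 by limma, 22.8% higher and 28.2% lower. The summed intensity of the basal list was 94670 and 86723 in Pak1-/- and 19379 and 18875 in Pak1+/+. In bulk RNA of this kind more cells of a type and more RNA per cell cannot be told apart, and the part of the basal difference in the ephrin and Eph values was not tested.

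Other cell types known for these genes were also looked for. Of 7 endothelial markers 2 were well above background on all 4 arrays and 3 (Cldn5, Emcn and Tek) on none, and none of the 4 tested passed by its brightest probe, although a second Kdr probe, well above background on the Pak1-/- arrays alone, was at least 2.17-fold higher there. The summed endothelial intensity was 10604 and 10240 in Pak1-/- and 9329 and 11090 in Pak1+/+. Of 6 fibroblast markers Dcn and Lum gave no signal well above background on the 4 arrays, and 1, Col1a1, was higher (sum 1402 and 1176 against 1053 and 1050). Of 6 leukocyte markers Ptprc was lower and none was higher (sum 74737 and 52068 against 47739 and 43245), and neither of 2 neural markers tested passed (sum 48700 and 34975 against 31915 and 27306). A single Itgam probe, at 15.20 to 16.07 log2, carried most of the leukocyte sum. Their part in the results was not tested.

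On every array the 12 probes of the ephrins and Eph receptors gave signals well above background, and none was saturated, so each fold change of these 10 genes is measured on both sides. Replicate arrays of a group differed by 0.0032 to 0.23 log2 at these probes. By limma, with p adjusted over 27229 probes, 4 of the 10 genes were higher in the arrays labelled Pak1-/- (Efnb1, Efna1, Epha4 and Epha1), 1 was lower (Efna5) and 5 did not pass 0.05 (Epha2, Ephb2, Ephb3, Ephb4 and Efnb2). Over all 21961 genes tested the same threshold was passed by 51.0%, with 22.8% higher and 28.2% lower, so the count of 5 in 10 is near that of the whole array. Counted over the 27229 probes instead of genes, the shares were 51.9%, 23.3% and 28.6%. Higher calls were 44.9% of all calls for all probes tested, 52.4% under cyclic loess and 55.3% with a 2-fold minimum, so which direction held the majority depended on the setting. A change of at least 2-fold beside the threshold was shown by 3 of the 10, against 12.6% of all genes. The 4 arrays separated by group without overlap for 9 of the 10 genes, Ephb4 being the exception, against 77.6% of all genes. The median difference was 0.15 log2 over the 10 genes and -0.055 over all genes, and the median absolute difference 0.22 against 0.32.

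**Figure D1:**
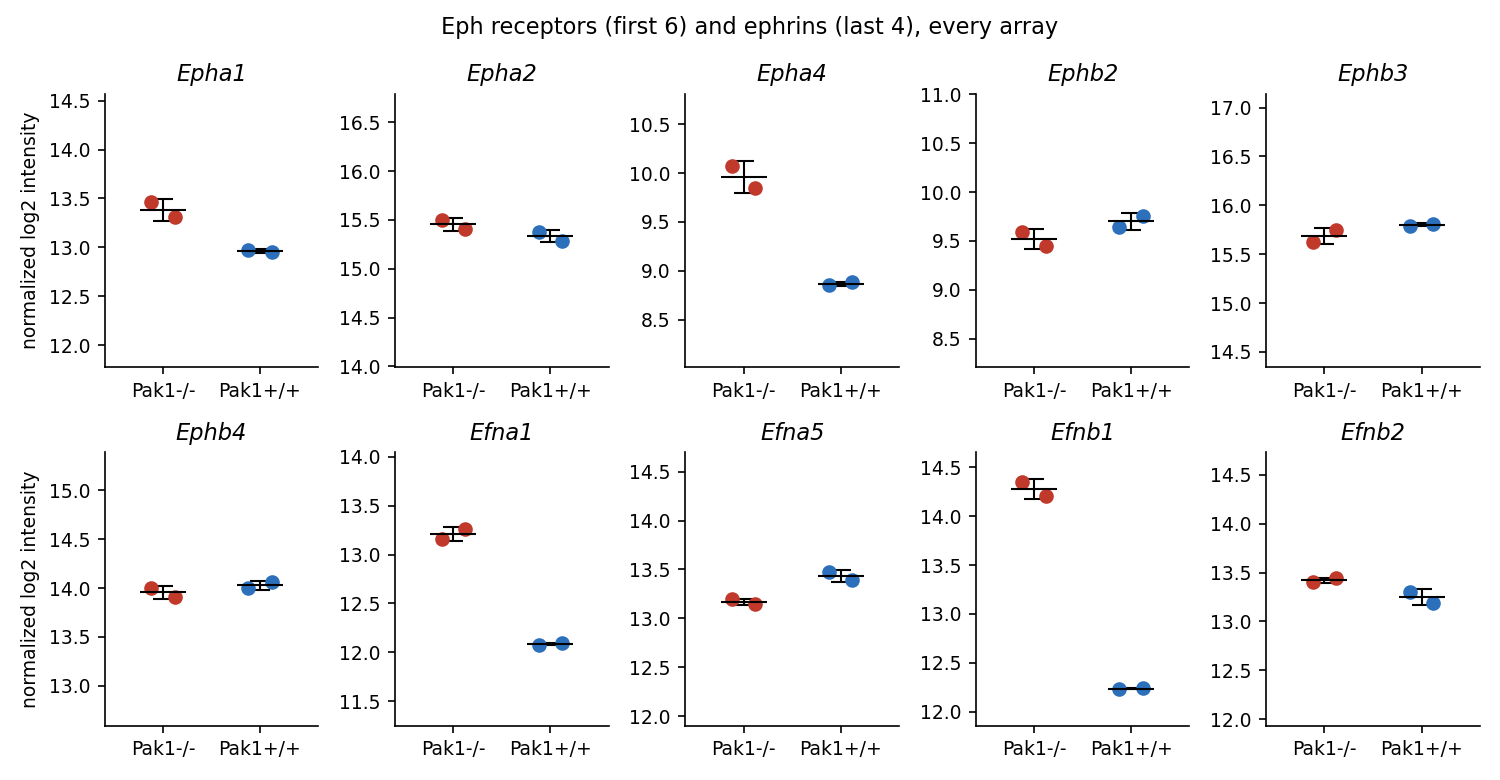
Normalized log2 intensity (y axis, of the same height in log2 units in every panel) of the brightest probe of each gene on the 2 Pak1-/- and 2 Pak1+/+ arrays. Points are arrays, horizontal lines are means and bars are 1 SD. The 2 groups are far apart for Efnb1, Efna1 and Epha4, and lie within 0.42 log2 of each other for the other 7 genes.

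Efnb1, a transmembrane ligand of B-type receptors, had the largest difference of the 10 genes. Its normalized log2 intensity was 14.35 and 14.20 in the arrays labelled Pak1-/- and 12.23 and 12.24 in Pak1+/+. Both Pak1-/- arrays were far above both Pak1+/+ arrays, which were almost identical. The difference was 2.04 ± 0.082 log2 (SE, n = 2 per group), a 4.12-fold higher signal with a 95% confidence interval of 3.54 to 4.78 (limma adjusted p = 0.000196). Of all probes tested, 3.36% had a larger absolute difference.

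Efnb2, the other transmembrane ligand and a known marker of arterial endothelium, read 13.40 and 13.44 in Pak1-/- and 13.31 and 13.19 in Pak1+/+ (A_52_P340073, mm9 chr8:8618177-8618236, minus strand). The groups did not overlap, but the difference of 0.17 ± 0.077 log2 (SE, 95% interval -0.029 to 0.38) did not pass (limma adjusted p = 0.123). A second, dimmer Efnb2 probe (A_55_P2138781, mm9 chr8:8620426-8620485) read 8.23 and 8.31 against 8.17 and 8.15. Its difference of 0.11 log2 did not pass either (limma adjusted p = 0.274). Efnb2 was therefore not shown to differ, and its interval leaves room for a signal up to 0.38 log2 higher in Pak1-/-.

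Efna1, a lipid-anchored ligand best known as a partner of Epha2, read 13.16 and 13.26 in the arrays labelled Pak1-/- and 12.08 and 12.09 in Pak1+/+. The groups lay much farther apart than the replicates of either group. The difference was 1.13 ± 0.074 log2 (SE, n = 2 per group), or 2.19-fold with a 95% interval of 1.91 to 2.50 (limma adjusted p = 0.000635).

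Efna5, also lipid-anchored and known from the guidance of retinal axons, went the other way and by much less. It read 13.19 and 13.15 in Pak1-/- and 13.48 and 13.39 in Pak1+/+. Both Pak1-/- arrays were below both Pak1+/+ arrays, by a difference of -0.26 ± 0.073 log2 (SE, n = 2 per group, limma adjusted p = 0.0371), a signal 1.20-fold lower. The call was lost whichever of the 4 arrays was left out, in fits that set 1 array against 2 and assume that the lone array varies like the other group. Dropping Pak1-/- replicate 1 or 2 gave adjusted p-values of 0.0792 or 0.106 and dropping Pak1+/+ replicate 1 or 2 gave 0.184 or 0.0945, with differences of -0.31 to -0.22.

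Among the 3 A-type receptors of the 10 genes, Epha4 differed most. It read 10.08 and 9.85 in the arrays labelled Pak1-/- and 8.86 and 8.88 in Pak1+/+. The Pak1-/- arrays stood 0.23 log2 apart, the widest gap between replicates among these probes, and both were above Pak1+/+. The difference was 1.09 ± 0.10 log2 (SE, n = 2 per group), or 2.13-fold with a 95% interval of 1.78 to 2.56 (limma adjusted p = 0.00147).

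Epha1, the receptor for which the family is named and a gene of epithelial tissues, read 13.46 and 13.31 in Pak1-/- and 12.98 and 12.95 in Pak1+/+. Both Pak1-/- arrays were above both Pak1+/+ arrays, with a difference of 0.42 ± 0.084 log2 (SE, n = 2 per group), or 1.34-fold (limma adjusted p = 0.0141). Dropping Pak1+/+ replicate 1 or 2 lost the call, at an adjusted p of 0.0572 or 0.0659, with differences of 0.43 and 0.41.

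Epha2, a receptor for Efna1 that is known for its high level in many epithelial tumours, read 15.50 and 15.41 in Pak1-/- and 15.38 and 15.29 in Pak1+/+ (A_52_P518997, mm9 chr4:140885139-140885198, plus strand). The lowest Pak1-/- array was just above the highest Pak1+/+ array. The difference of 0.12 ± 0.079 log2 (SE, 95% interval -0.086 to 0.33) did not pass (limma adjusted p = 0.256). The array values of the Efna1 ligand thus differed past the threshold while those of this receptor did not. Whether these 2 differences differ from each other was not tested.

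None of the 3 B-type receptors passed, a count of 3 genes to be read beside the 51.0% of all genes that did. Ephb2, known from the sorting of cells along the intestinal crypt, read 9.59 and 9.45 in Pak1-/- and 9.64 and 9.76 in Pak1+/+ (A_55_P2215880, mm9 chr4:136211203-136211262, minus strand), a difference of -0.18 ± 0.090 log2 (SE, 95% interval -0.42 to 0.053, limma adjusted p = 0.153). The groups lay close together without overlap. Ephb3, which often acts beside Ephb2, read 15.63 and 15.74 against 15.79 and 15.81 at the probe with the long repeat, a difference of -0.12 ± 0.076 log2 (SE, 95% interval -0.32 to 0.086, limma adjusted p = 0.265). The 11 other probes with such a run had a median difference of -0.20 log2. Past the threshold 3 of 11 were lower and none higher, against 28.6% and 23.3% of all probes tested.

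Ephb4, the receptor of Efnb2 known from venous endothelium and mammary epithelium, had 2 probes. The brighter (A_55_P2058718, mm9 chr5:137815646-137815705, plus strand) read 14.00 and 13.91 in Pak1-/- and 14.00 and 14.06 in Pak1+/+, the only one of the 10 genes whose groups overlapped. Its difference was -0.074 ± 0.076 log2 (SE, 95% interval -0.27 to 0.13, limma adjusted p = 0.457). The dimmer (A_66_P130777, mm9 chr5:137813703-137813762) read 11.91 and 12.01 against 12.12 and 12.11, a difference of -0.15 log2 that did not pass (limma adjusted p = 0.152).

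By role, then, 2 of 3 A-type receptors, 0 of 3 B-type receptors, 1 of 2 A-type ligands and 1 of 2 B-type ligands were higher in the arrays labelled Pak1-/-, and the other A-type ligand was lower. With 2 or 3 genes a role and 51.0% of all genes past the threshold (22.8% higher, 28.2% lower), nothing about a class is read from these counts. The B-type ligand Efnb1 was 4.12-fold higher, while the 95% intervals of Ephb2 and Ephb4 did not reach 2-fold in either direction and that of Ephb3 rests on the probe with the repeat. Among these genes the differences of Efnb1, Efna1 and Epha4 kept their direction and their call under all 17 other settings tried, with ranges of 1.97 to 2.13, 1.08 to 1.21 and 0.98 to 1.30 log2.

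**Figure D2:**
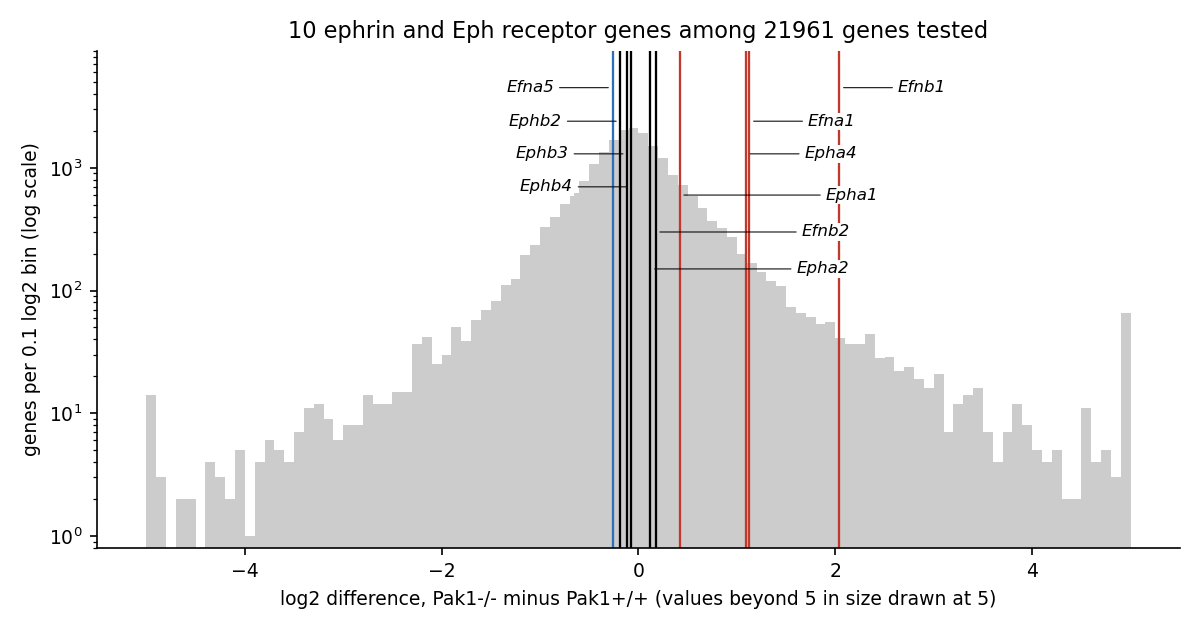
Histogram of the log2 difference, Pak1-/- minus Pak1+/+, of the brightest probe of all 21961 genes tested (x axis) against the number of genes per bin (y axis, log scale), with a vertical line for each of the 10 genes: red for higher, blue for lower, black for not past the threshold. Efnb1 lies at 2.04 in the right tail, Efna1 and Epha4 lie at 1.13 and 1.09, and the other 7 lie in the body of the histogram.

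The rest of the family was read in the same fit. Of the 12 other Eph and ephrin genes, Epha3, Epha6, Epha10 and Ephb1 gave no signal well above background on the 4 arrays and were not tested. Of the 8 tested, 2 were higher, 3 were lower and 3 did not pass, with a median difference of -0.16 log2 and a median absolute difference of 0.81. The 5 of 8 past the threshold stand beside 51.0% of all genes (22.8% higher, 28.2% lower).

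Epha7, an A-type receptor known from the nervous system, had the largest difference of the whole family, and it ran opposite to that of Epha4. Its brightest probe (A_52_P504787) read 9.98 and 10.15 in the arrays labelled Pak1-/- and 13.61 and 13.29 in Pak1+/+. Both Pak1-/- arrays were far below both Pak1+/+ arrays, a difference of -3.38 ± 0.14 log2 (SE, n = 2 per group, limma adjusted p = 0.000197), or 10.4-fold lower. A second Epha7 probe differed by -3.05 log2 (limma adjusted p = 0.000110), and a dimmer one was at least 5.72-fold lower in Pak1-/-, a bound because it was well above background on the Pak1+/+ arrays alone, through which it entered the fit.

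Efna2 and Efnb3, a lipid-anchored and a transmembrane ligand, were lower in the arrays labelled Pak1-/-. Efna2 read 7.23 and 7.29 against 8.51 and 8.39 in Pak1+/+, a difference of -1.19 ± 0.079 log2 (SE, limma adjusted p = 0.000665), which was -1.54 with no offset and -1.91 in processed signals scaled to the 75th percentile. Efnb3 read 7.96 and 8.07 against 9.19 and 9.07, a difference of -1.12 ± 0.086 log2 (SE, limma adjusted p = 0.000965). Thus Efnb1 and Efnb3, both B-type ligands, differed in opposite directions and each without overlap of the groups.

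Efna4 and Ephb6 were higher. Efna4, a further lipid-anchored ligand, read 13.27 and 13.45 against 12.66 and 12.63, a difference of 0.71 ± 0.087 log2 (SE, limma adjusted p = 0.00321). Ephb6, a receptor whose kinase domain is known to be inactive, read 13.62 and 13.39 against 12.52 and 12.66, a difference of 0.91 ± 0.11 log2 (SE, limma adjusted p = 0.00312), and its second probe was higher by 0.52 log2 (limma adjusted p = 0.0156). Both genes were thus higher on both Pak1-/- arrays.

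The remaining tested genes of the family, Efna3, Epha5 and Epha8, did not pass. Efna3 differed by -0.11 log2 (limma adjusted p = 0.435). It lies between Efna1 and Efna4 on chromosome 3 in the order of protein-coding genes of GRCm38.p6, and both of those neighbours were higher. Epha8 differed by 0.25 log2 (limma adjusted p = 0.0765). Its probe was dim, at 6.77 to 7.10 log2, and well above background on 3 of the 4 arrays. Under the other settings the Epha8 difference ran from 0.15 to 0.51 log2. The brightest Epha5 probe, which holds an alternating G and T run of 20 bases, differed by -0.22 log2 (limma adjusted p = 0.0534). Epha5 passed when arrays were scaled to their 75th percentile in place of quantile normalization (-0.28 and -0.27 log2, limma adjusted p = 0.0460 and 0.0400), and also with quantile normalization when only probes well above background on all 4 arrays were kept (limma adjusted p = 0.0446). The array holds 51 probes with a run of at least 20 bases beside that of Ephb3, the Epha5 probe among them. Each of the 51 was well above background on the 4 arrays, and their median difference was -0.22 log2. Past the threshold 24 were lower and none higher, against 28.6% and 23.3% of all probes tested. The part of the run in the Epha5 signal was not tested. The other Epha5 probe was well above background on 1 array, so that the 2 Epha5 probes give different pictures of the gene.

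**Figure D3:**
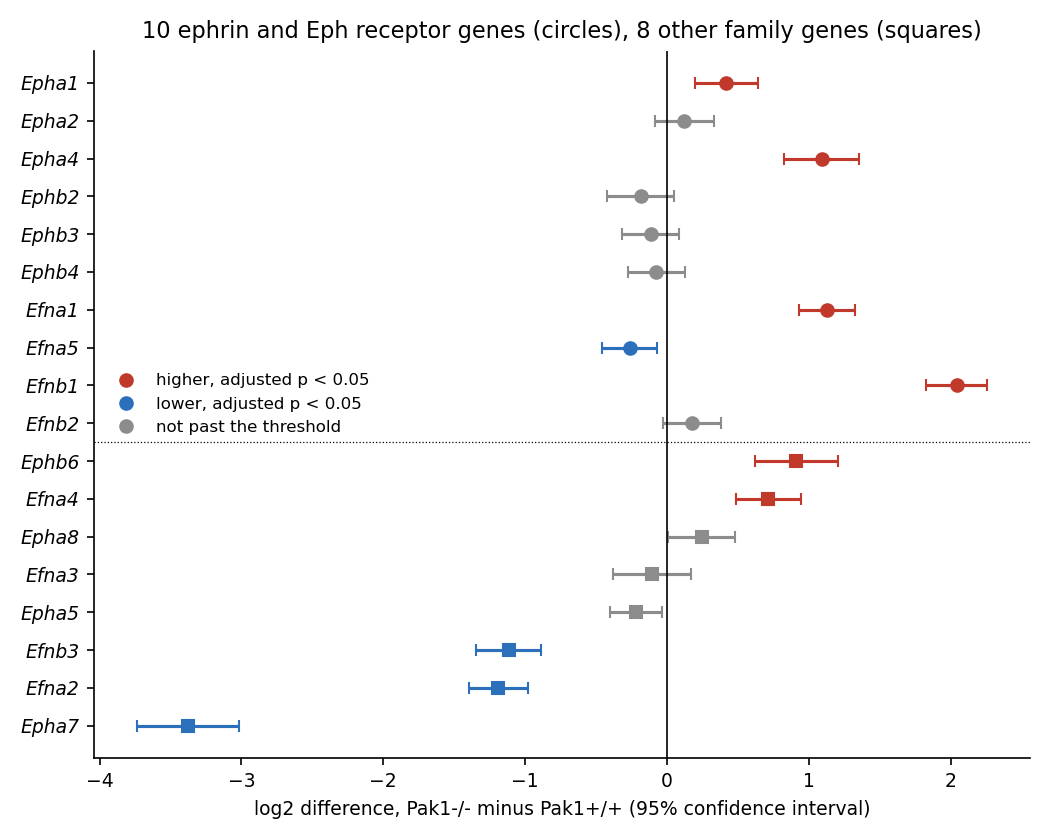
Log2 difference, Pak1-/- minus Pak1+/+ (x axis), with its 95% confidence interval for the 10 genes (circles, above the dotted line) and the 8 other tested family genes (squares, below it). Red marks genes higher, and blue genes lower, at a limma adjusted p under 0.05. Efnb1 at 2.04 and Epha7 at -3.38 are the extremes.

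Genes that act with Eph receptors and ephrins were counted from a list of 33, ordered by role, of which 30 were tested. Of these, 12 were higher, 9 were lower and 9 did not pass, with a median difference of 0.054 log2. Over all genes tested 51.0% passed, 22.8% higher and 28.2% lower, and the shares by role below rest on 4 to 8 genes each. The 4 arrays separated by group for 26 of these 30 partners, against 77.6% of all genes. Of 8 guanine exchange factors, which activate GTPases such as Rac and Cdc42 behind the receptors, 4 were higher and 2 lower. Of 4 GTPase activators 2 were higher and 2 lower, of 5 adaptors and scaffolds tested 2 were higher and 2 lower, and of 5 non-receptor kinases 1 was higher and 2 lower. Of 4 phosphatases 1 was higher and 1 lower, and of 4 proteases that cut Eph receptors or ephrins 2 were higher and none was lower.

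By the brightest probe in the fit reported, the 3 partners with the largest increases were Mmp14, Vav3 and Rhbdl2. The 3 that led were not the same under every other setting. Mmp14, a membrane-bound metalloproteinase known to cut Epha2, read 14.59 and 14.78 in the arrays labelled Pak1-/- and 7.62 and 6.24 in Pak1+/+, a difference of 7.76 ± 0.46 log2 (SE, limma adjusted p = 0.000511), although Pak1+/+ replicate 2 was not well above background. Against Pak1+/+ replicate 1 alone, which was, the Mmp14 difference was 7.07 log2, and larger values rest on the array without a measured level. Rhbdl2, a rhomboid protease known to cut B-type ephrins, was higher by 1.27 ± 0.085 log2 (SE, limma adjusted p = 0.000672). Vav3, a Rac exchange factor recruited by activated Eph receptors, was higher by 1.34 ± 0.091 log2 (SE, limma adjusted p = 0.000690). For all 3 genes both Pak1-/- arrays were above both Pak1+/+ arrays.

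The 3 with the largest decreases were Acp1, Chn2 and Yes1. Acp1, the low molecular weight tyrosine phosphatase that acts on Eph receptors, was lower by a difference of -1.39 ± 0.070 log2 (SE, limma adjusted p = 0.000328). Chn2, a Rac GTPase activator of the chimaerin family, differed by -0.997 ± 0.17 log2 (SE, limma adjusted p = 0.00802). Yes1, a kinase of the Src family, differed by -0.76 ± 0.15 log2 (SE, limma adjusted p = 0.0125). Dropping Pak1-/- replicate 1 or 2 lost the Yes1 call, at -0.69 and -0.82 log2 and an adjusted p of 0.0754 and 0.0520. For all 3 genes both Pak1-/- arrays were below both Pak1+/+ arrays.

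The profiles most like that of Efnb1, by Euclidean distance of the 4 log2 values less their mean over 23766 probes, were those of Trim34 (distance 0.0095), Fggy (0.017) and Tap2 (0.029). Their differences were 2.05, 2.03 and 2.07 log2. The profiles most like that of Efna5 were a probe named Loxl2, described in the files as a predicted transcript similar to it (0.013), Slc17a8 (0.014) and the probe A_55_P2182423, which has no gene name (0.019). With 4 arrays such a likeness reflects little beyond the difference between groups and the gaps within them.

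Promoter sequence was set beside the 3 genes with the largest differences. The 250 bases before the transcript start are given below from RefSeq (GRCm38.p6), 5′ to 3′ on the strand of the gene with CpG dinucleotides in capitals: Efnb1 at chrX:99135811-99136060 on the plus strand, Efna1 at chr3:89280952-89281201 on the minus strand, the farther upstream of its 2 annotated starts, and Epha4 at chr1:77515089-77515338 on the minus strand.
Efnb1: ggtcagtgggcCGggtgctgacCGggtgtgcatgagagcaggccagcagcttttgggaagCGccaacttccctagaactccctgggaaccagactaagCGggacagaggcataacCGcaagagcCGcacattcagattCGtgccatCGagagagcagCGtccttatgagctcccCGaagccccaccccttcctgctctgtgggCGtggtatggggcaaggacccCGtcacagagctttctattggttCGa
Efna1: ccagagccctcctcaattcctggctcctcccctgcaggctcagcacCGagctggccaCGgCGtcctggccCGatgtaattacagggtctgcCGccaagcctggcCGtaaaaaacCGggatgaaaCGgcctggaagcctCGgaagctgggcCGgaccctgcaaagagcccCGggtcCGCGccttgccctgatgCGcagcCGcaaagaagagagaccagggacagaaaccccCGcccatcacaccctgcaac
Epha4: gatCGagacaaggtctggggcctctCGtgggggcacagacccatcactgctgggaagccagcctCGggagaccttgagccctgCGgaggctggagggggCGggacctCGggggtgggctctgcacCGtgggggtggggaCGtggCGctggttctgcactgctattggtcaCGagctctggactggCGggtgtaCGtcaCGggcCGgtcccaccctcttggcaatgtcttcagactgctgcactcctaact
All 10 genes had a promoter in the table, 11 promoters in all. These held 9 to 32 CpG dinucleotides with a median of 16, against a median of 6 and quartiles of 2 and 16 over 32851 promoters. On neither strand did any of the 11 hold the AP-1 motif TGANTCA (6.75% of all promoters), the core of the interferon-stimulated response element (2.98%) or the E-box CACGTG (6.02%). That says only that these letters are absent from these windows.

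**Figure D4:**
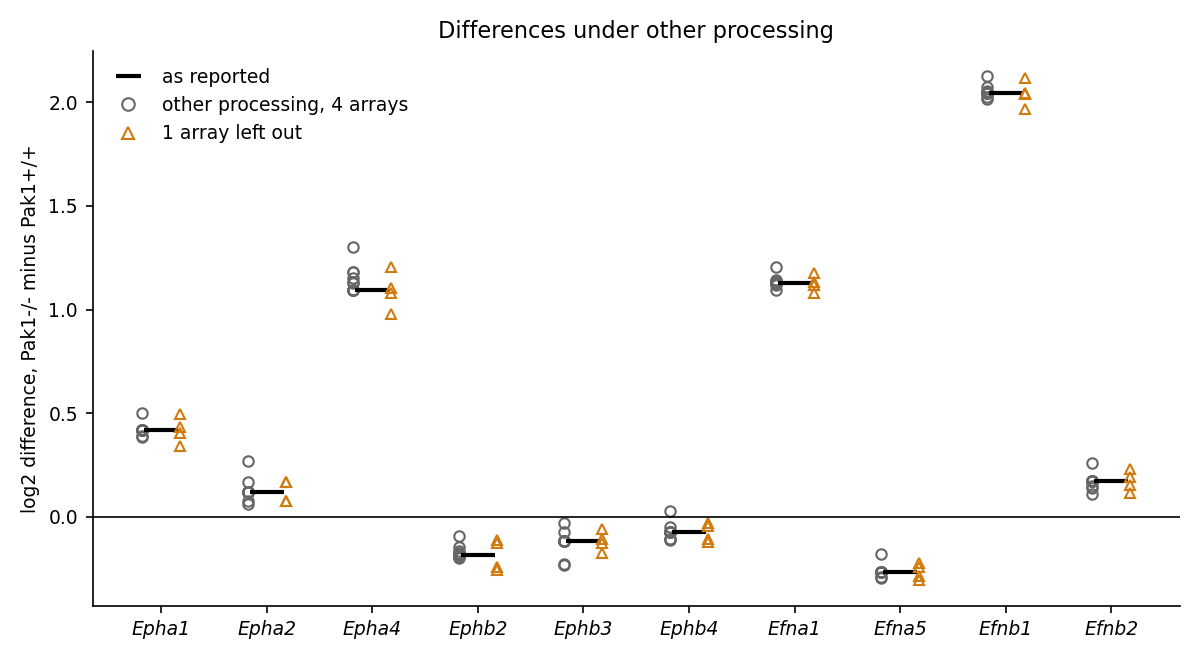
Log2 difference, Pak1-/- minus Pak1+/+ (y axis), of each of the 10 genes (x axis) as reported (bars), under other processing of all 4 arrays (circles) and with 1 array left out (triangles). Efnb1, Efna1 and Epha4 stay at 0.98 or higher in all of them, and the sign of Ephb4 changes once.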

How the data were processed

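RNA from 4 cell cultures was labelled with Cy3 and hybridised to 1-colour Agilent mouse arrays, all on 1 slide. The deposited scanner files hold the spot intensity and local background that the authors extracted with Agilent Feature Extraction 9.5.3.1, and a deposited table holds the log2 values the authors normalized. Mean signals were background corrected (normexp), put on log2 and quantile normalized, as the methods of the study name, with an offset of 50 that was chosen here, and spots of a probe were averaged. Probes marked as well above background on 2 or more arrays, 27229 (69.1%), entered limma 3.58.1 (R 4.3.3; lmFit and eBayes, two-sided, Benjamini-Hochberg adjustment, threshold 0.05). Depth has no meaning for intensities: the 2 arrays a group limit the precision, and an exact permutation test of 2 against 2 cannot go below p = 0.333, so none was run.

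Probe positions are mm9, and promoter positions GRCm38.p6. Pak1-/- and Pak1+/+ come from the labels; same-numbered arrays were not paired. The named genes are all 10 ephrins and Eph receptors with every probe, the other family genes tested, the 3 partners with the largest increases and decreases past the threshold, Pak1 and Erbb2, and the 3 profiles nearest to the member with the largest increase and decrease. Erbb2 differed by -0.31 log2 (limma adjusted p = 0.0202), a call lost in 3 of 4 fits without 1 array. Partners whose sign changed under an alternative were named after their values were seen. The remaining partners are counted in their list but have no value of their own here. The members, partner and marker lists were chosen with earlier results of these data known. Offset, scaling, filter, threshold, replicate block, left-out arrays, probe averaging, naming by accession and the authors' table were tried as alternatives.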

Additional observations from a re-analysis of the deposited data

How the results depend on the processing

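Of 170 values for the 10 ephrins and Eph receptors under 17 alternatives, 155 held in direction and call, 13 fell short of the threshold, 1 gained it (Efnb2 under cyclic loess, 0.26, limma adjusted p = 0.0425) and 1 changed sign (Ephb4 under cyclic loess, 0.031). The count of 1 lower gene (Efna5) became 0 under cyclic loess, with no filter, with the replicate block, at 0.01, with a 2-fold minimum and in all leave-one-out fits (0 to 0). For all probes tested, 14132 calls became 8878 at 0.01, 3413 with a 2-fold minimum and 10307 to 12164 with 1 array left out. Partners lower fell from 9 to 5 at 0.01 and 1 with a 2-fold minimum, which left 5 partners higher and 0 of the 2 other family genes higher. Signs changed for Efna3 (-0.22 to 0.011), Tiam1 (-0.049 to 0.093), Src (-0.0066 to 0.064) and Abl2 (-0.14 to 0.0044) with 1 array left out, Abl2 under cyclic loess (0.0073), Adam10 in processed signals scaled to the 75th percentile (-0.015) and Itsn1 averaged over its probes (0.33). The cause was not tested.

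Replicate numbers did not pair the arrays: replicate differences of the groups correlated at r = -0.028 across probes, and the replicate block gave 13211 calls for all probes tested, moved Efna5 to an adjusted p of 0.0626 and changed none of the other counts for the 10 genes, the other family genes and the partners. The mean difference between groups rests on 2 cultures each, and probes dim on an array carry only a bound there.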
